A study of Homo sapiens with 6 samples.

Results

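The ubiquitin-conjugating enzymes (E2 enzymes) were examined in HMC3, an immortalized human cell line labelled as microglia, 24 h after a dose of 15 Gy. Members were all genes whose symbol is UBE2 followed by 1 letter and an optional number, leaving out UBE2C, UBE2S and UBE2L6. This gave 30 of the 31768 genes listed and 321 of 153848 transcripts. The filter on low counts, which asks for at least 10 counts in at least 3 libraries and for at least 2 transcripts that each reach 3 counts in a library, kept 27 of these genes among 11118 and 250 of their transcripts among 74843. UBE2J1 and UBE2R2, with 1 listed transcript each, and UBE2L5 did not pass it.

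Cells of 1 line were grown in serum-containing medium, exposed to X-rays at 15 Gy (irradiated) or left at 0 Gy (control), and kept for 24 h before RNA extraction. Each group held 3 independent cultures. Polyadenylated RNA was read as full-length cDNA on the Nanopore platform, and the values are counts per transcript.

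Ubiquitin and the related modifiers SUMO and NEDD8 reach their substrates in a relay. An activating enzyme (E1) loads the modifier onto the catalytic cysteine of an E2 enzyme, and the charged E2 then works with a ligase (E3) that chooses the substrate. The E2 largely sets which chain is built or whether 1 modifier is left alone, and several E2 enzymes have long-studied roles in the repair and tolerance of DNA damage, which is why they are of interest after irradiation.

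UBE2A and UBE2B, the human counterparts of yeast Rad6, are a close pair of E2 genes with roles in DNA damage, and they were measured with unlike outcomes. Their coding sequences are both 456 bases long and share 80.5% of bases. The stretch around codon 88, which encodes the catalytic cysteine, shows how the genes differ. It covers coding bases 217 to 309 on the plus strand of GRCh38, chrX:119581572-119581596 with chrX:119582588-119582655 for UBE2A, and chr5:134380784-134380808 with chr5:134388325-134388392 for UBE2B. Capitals mark the 16 of 93 bases that differ between the genes.
UBE2A: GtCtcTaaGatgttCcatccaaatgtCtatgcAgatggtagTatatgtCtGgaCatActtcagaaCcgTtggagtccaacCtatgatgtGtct
UBE2B: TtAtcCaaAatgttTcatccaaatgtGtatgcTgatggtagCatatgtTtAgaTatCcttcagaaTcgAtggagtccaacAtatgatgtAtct

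UBE2B was also the gene with the only switched E2 isoform, and an exon that sets this isoform apart is shown next. The coding isoform ENST00000265339 has 6 exons. ENST00000499038, a processed transcript (a class with no annotated reading frame), has 3, and it starts with an exon of 34 bases at chr5:134385603-134385636, which lies in the intron between exons 4 and 5 of the coding isoform. Both isoforms then share the exon at chr5:134388325-134388413. In the sequences, which are from GENCODE release 29 on GRCh38, capitals mark the exon used by the named isoform alone (exon 4 of the coding isoform, at chr5:134380719-134380808, or exon 1 of the processed transcript) and lower case marks the shared exon.
ENST00000265339: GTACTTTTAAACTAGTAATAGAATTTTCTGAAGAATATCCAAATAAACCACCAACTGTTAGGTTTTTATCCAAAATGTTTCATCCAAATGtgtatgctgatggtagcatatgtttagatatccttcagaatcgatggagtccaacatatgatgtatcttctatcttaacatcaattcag
ENST00000499038: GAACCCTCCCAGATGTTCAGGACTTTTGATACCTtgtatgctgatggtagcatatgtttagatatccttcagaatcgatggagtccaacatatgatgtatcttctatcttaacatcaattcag

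Libraries held between 4870897 and 9082409 counts, of which the E2 genes took 0.355% to 0.401%. Of 13 microglial markers, 10 had a mean under 1 CPM (counts scaled to a common library size with TMM factors), with PTPRC, SPI1 and AIF1 near 0, so the label microglia was not borne out by its defining markers. All 6 listed genes of the radiation response were higher in the irradiated cultures. Summed proliferation markers were 1171 to 1266 CPM in the controls and 811 to 922 CPM in the irradiated cultures. Of these 10 markers 3 fell, AURKA and CCNB1 among them, while TOP2A (log2 fold change 0.61, edgeR adjusted p = 0.00328) and TYMS (0.73, 0.0052) rose and PCNA had -0.02, and their part in the E2 results was not tested. Control 3 stood nearer to the irradiated libraries (correlations across genes of 0.954 to 0.961) than the other controls did (0.924 to 0.94), and counts that move by over 1.5 times without it are given without it as well. In such bulk RNA, fewer cells of a type and less RNA per cell cannot be told apart.

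After irradiation, 7 E2 genes fell and 3 rose at an adjusted p under 0.05 (edgeR's quasi-likelihood test, Benjamini-Hochberg adjustment over all genes tested). Among the genes that fell were UBE2T, UBE2N, UBE2A, UBE2V2, UBE2V1 and UBE2L3. Those that rose were UBE2H, UBE2M and UBE2Z. The 7 of 27 (25.9%) stand beside 14.1% of all genes that fell, and the 3 of 27 (11.1%) beside 11.6% of all genes that rose. With an absolute log2 fold change over 1 as a further limit, 1 gene, UBE2H, was differentially expressed, beside 5.7% of all genes (4% higher and 1.7% lower). This call was lost with RLE factors (log2 fold change 0.997), with an offset for transcript length (0.87) and without control 1 (0.82), and UBE2T passed this limit too, making 2 genes, without control 3 (-1.07) or irradiated culture 2 (-1.09). The irradiated cultures lay wholly below the controls in 8 E2 genes (29.6%, beside 21.3% of all genes) and wholly above in 5 (18.5%, beside 21.5%), 13 of 27 in all beside 42.7%. The median log2 fold change was -0.04 over the E2 genes and 0.08 over all genes tested. Scaling by library totals alone in place of TMM factors moved the median of all genes to 0.53 and turned the split into 3 lower (UBE2T and UBE2A among them) and 11 higher. On that scale all 7 genes that fell stayed below 0, between -0.07 and -0.47, and lay 0.60 to 1.00 below the median of all genes. Without control 3, 8 genes fell and 4 rose, the same 10 with UBE2W lower and UBE2Q1 higher.

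**Figure D1:**
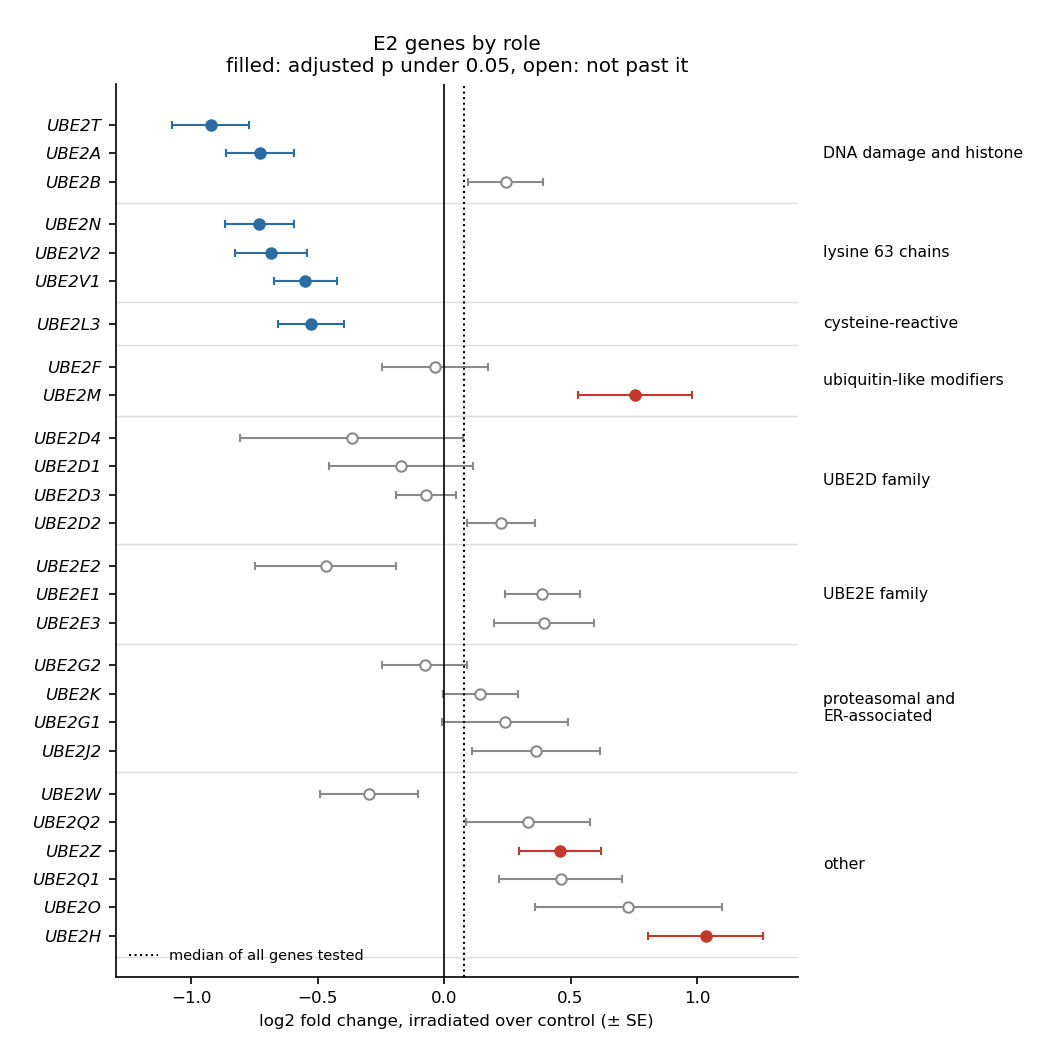
Log2 fold change of 26 of the 27 E2 genes tested, irradiated over control, with its standard error, grouped by role (n = 3 cultures per group). Filled points passed an adjusted p of 0.05, blue for lower and red for higher, and the dotted line is the median of all genes tested (0.08). All 3 genes of the lysine 63 chain group lie to the left, and UBE2B lies apart from UBE2A and UBE2T.

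Among the E2 enzymes of DNA damage and histone ubiquitination, UBE2T and UBE2A fell and UBE2B did not pass the test. UBE2T works with the ligase FANCL in the Fanconi anemia pathway, where it attaches ubiquitin to FANCD2 and FANCI at DNA crosslinks. Its level was 1200, 1232 and 927 CPM in controls 1, 2 and 3 and 489, 720.1 and 563 CPM in irradiated cultures 1, 2 and 3. Every irradiated culture was below every control. The mean fell from 1119.8 ± 168 to 590.5 ± 118 CPM (SD, n = 3), a log2 fold change of -0.92 ± 0.15 (SE) with an adjusted p of 0.0009 by edgeR, the largest fall among the E2 genes with TMM factors. With an offset for the dependence of each library on transcript length it was -0.56, and UBE2N (-0.88) and UBE2V2 (-0.79) then fell more.

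UBE2A acts with RAD18 on PCNA in damage tolerance and with RNF20 and RNF40 on histone H2B. It was at 375, 412 and 338 CPM in the controls and at 211, 269.9 and 198 CPM in the irradiated cultures, again with no overlap. Its log2 fold change was -0.73 ± 0.13 (edgeR adjusted p = 0.00154). UBE2B, which shares these partners, was at 37.6, 45 and 43.5 CPM in the controls and at 48.8, 52.5 and 48.6 CPM in the irradiated cultures. Its log2 fold change was 0.24 ± 0.15 (edgeR adjusted p = 0.235). The ratio of UBE2A to UBE2B counts within a library was 9.97, 9.16 and 7.78 in controls 1 to 3 and 4.33, 5.14 and 4.09 in the irradiated cultures, so that it was lower in all 3 irradiated cultures. A two-sided exact permutation test of this ratio gave p = 0.1, the smallest that 3 cultures against 3 allow. UBE2A overlaps NKRF on the opposite strand, and reads of these genes cannot be told apart without strand.

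The upstream sequence of UBE2T is shown because this gene had the largest fall with TMM factors. The run holds 206 bases upstream of the gene on GRCh38.p14, minus strand, chr1:202341981-202342186, from a window of the 250 bases before the RefSeq start that was searched. Capitals mark matches, on either strand, to CCAAT (2 matches) and TTTGAA (1 match), the core of the element called cell cycle homology region. GCGGGAA, an E2F-type motif, and TATAAA had no match in the window.
UBE2T: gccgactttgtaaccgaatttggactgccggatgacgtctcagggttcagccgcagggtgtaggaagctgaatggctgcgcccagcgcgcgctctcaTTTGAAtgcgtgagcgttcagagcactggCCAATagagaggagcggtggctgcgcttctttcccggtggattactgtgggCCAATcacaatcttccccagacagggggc
CCAAT occurred in 32% of the 35116 windows of that length, TTTGAA in 13.3%, GCGGGAA in 5.52% and TATAAA in 10.7%. Of the 23 E2 genes with a window, 7 held CCAAT, 2 TTTGAA, 2 GCGGGAA and 1 TATAAA. Of the 5 genes that fell and had a window, UBE2T alone held CCAAT or TTTGAA, and UBE2L3 alone held GCGGGAA. Of the 2 that rose and had a window, UBE2Z held CCAAT. A match describes these letters only.

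All 3 members of the group that builds lysine 63 chains fell. UBE2N is the catalytic enzyme, and UBE2V1 and UBE2V2 are E2-like partners that lack the catalytic cysteine and orient the acceptor ubiquitin. The dimer with UBE2V1 is known from signaling through TRAF6, and the dimer with UBE2V2 from extension of ubiquitin on PCNA. UBE2N was at 150.3, 151 and 131 CPM in the controls and at 72.9, 99.5 and 88.3 CPM in the irradiated cultures (log2 fold change -0.73 ± 0.14, edgeR adjusted p = 0.0017). UBE2V2 was at 121, 135 and 106 CPM in the controls and at 64.2, 85.4 and 75.5 CPM after irradiation (-0.68 ± 0.14, edgeR adjusted p = 0.00297).

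UBE2V1, the E2 gene with the highest count, was at 1262, 1314 and 1079 CPM in the controls and at 758, 916 and 823 CPM in the irradiated cultures. Its log2 fold change was -0.55 ± 0.12 (edgeR adjusted p = 0.00492). In all 3 genes the irradiated cultures lay below the controls. Within a library the ratio of UBE2V2 to UBE2N was 0.834 ± 0.0498 in the controls and 0.865 ± 0.0138 in the irradiated cultures (SD, n = 3; exact permutation p = 0.4), a difference smaller than the spread between controls. The ratio of UBE2V1 to UBE2N was 8.40, 8.70 and 8.20 in controls 1 to 3 and 10.4, 9.21 and 9.32 in the irradiated cultures, and that of UBE2V1 to UBE2V2 was 10.1 ± 0.353 and 11.1 ± 0.581. Both were higher in all 3 irradiated cultures, each with an exact permutation p of 0.1, the smallest possible here. With library totals alone, UBE2N (adjusted p = 0.0614), UBE2V2 (0.123), UBE2V1 (0.225) and UBE2L3 (0.526) no longer passed by edgeR. UBE2N overlaps NUDT4 on the opposite strand.

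UBE2L3 transfers ubiquitin to the cysteine of HECT and RBR ligases, among them ARIH1, ARIH2 and the linear chain ligase RNF31. It was at 454, 515 and 379 CPM in the controls and at 282, 331 and 322 CPM in the irradiated cultures, with no overlap. Its log2 fold change was -0.53 ± 0.13 (edgeR adjusted p = 0.00797). UBE2L5, a gene whose coding sequence shares 97.6% of bases with UBE2L3, held 56 counts over all libraries, and reads of these copies may be exchanged.

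**Figure D2:**
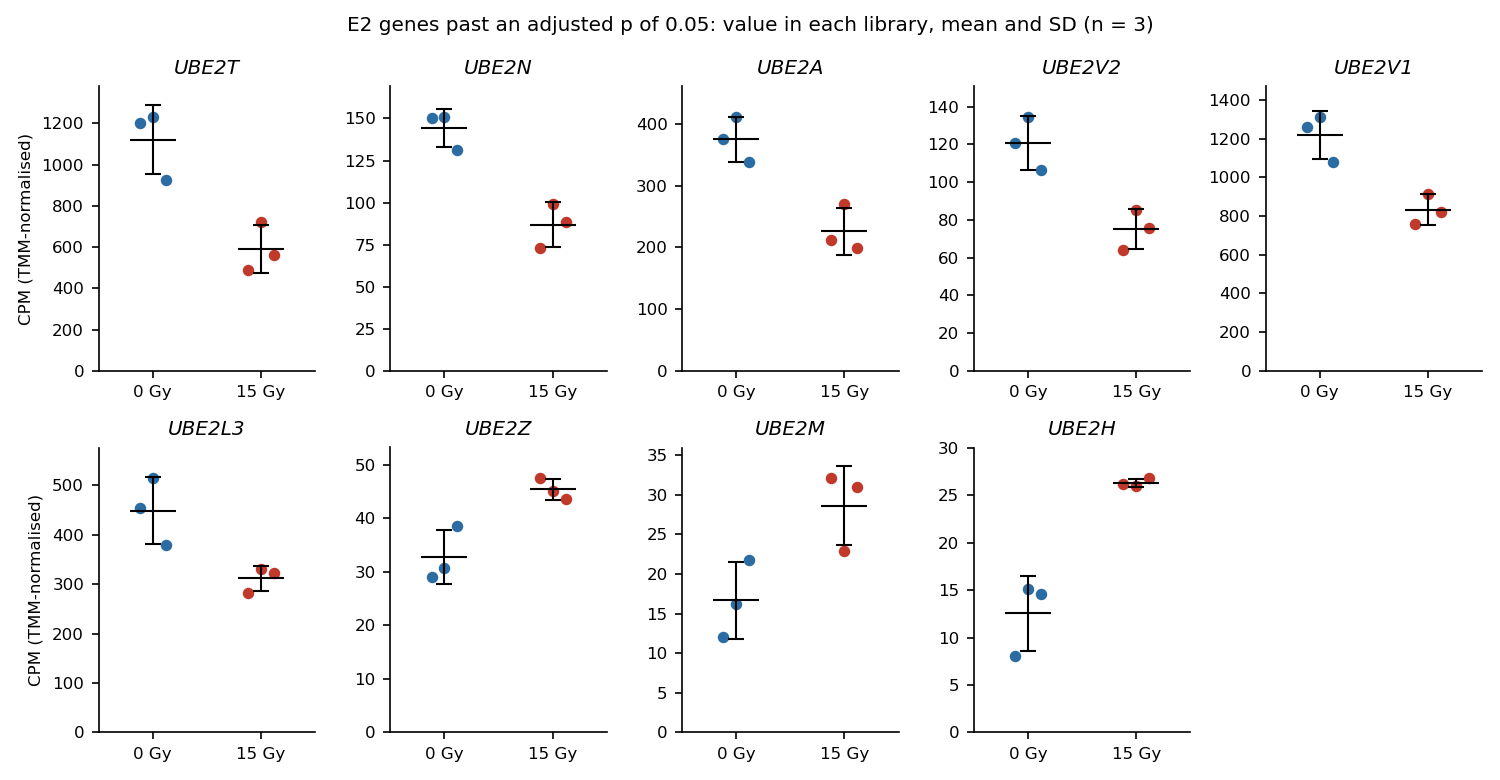
Level of 9 E2 genes that passed an adjusted p of 0.05, in CPM, one point per culture (blue 0 Gy, red 15 Gy), with mean and SD (n = 3). Axes start at 0 and differ between genes. In each gene the 3 irradiated cultures lie on 1 side of the 3 controls, and the lowest control of the genes that fell is control 3.

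Of the pair of NEDD8 enzymes, UBE2M passed the test and UBE2F did not. UBE2M, which passes NEDD8 to most cullins together with RBX1, was at 12, 16.2 and 21.8 CPM in the controls and at 32.1, 22.9 and 30.9 CPM after irradiation. Control 3 and irradiated culture 2 were close, at 21.8 and 22.9 CPM. The log2 fold change of UBE2M was 0.76 ± 0.23 (edgeR adjusted p = 0.0221). It no longer passed without control 1 (0.0808), control 2 (0.0632), irradiated culture 1 (0.0883) or irradiated culture 3 (0.0833). UBE2F, the other NEDD8 enzyme, which serves CUL5 with RNF7, was at 38.7 ± 10.6 CPM in the controls and 37.4 ± 7.53 CPM in the irradiated cultures (-0.04 ± 0.21, edgeR adjusted p = 0.916).

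UBE2H rose most with TMM factors (1.03), while with the length offset UBE2M (1.02) lay above it (0.87). It is the partner of the multi-subunit CTLH ligase that holds MAEA and RMND5A. Its level was 8.03, 15.1 and 14.6 CPM in the controls and 26.2, 26 and 26.8 CPM in the irradiated cultures. The irradiated values were nearly the same in the 3 cultures, while control 1 was lowest. The log2 fold change of UBE2H was 1.03 ± 0.23 (edgeR adjusted p = 0.00411). It stayed past the adjusted p when any 1 library was left out, with values of 0.82 to 1.18, and counts in control 1 were only 32.

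UBE2Z, which is charged by the activating enzyme UBA6 and also carries the modifier FAT10, was at 29.1, 30.8 and 38.6 CPM in the controls and at 47.5, 45 and 43.6 CPM in the irradiated cultures. Its log2 fold change was 0.46 ± 0.16 (edgeR adjusted p = 0.0477). This call did not hold by DESeq2 (adjusted p = 0.0675), with RLE factors by edgeR (0.0617) or when control 1, control 2 or any irradiated library was left out (0.0892 to 0.152).

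The remaining 17 genes tested ran from -0.47 to 0.73 on the log2 scale, with adjusted p from 0.0649 to 0.916. The smallest adjusted p values among them by edgeR belonged to UBE2E1 (0.39 ± 0.15, 0.0649), UBE2E3 (0.40 ± 0.20, 0.15), UBE2O (0.73 ± 0.37, 0.158) and UBE2Q1 (0.46 ± 0.24, 0.171). UBE2E1 was at 45.9, 41.2 and 45.4 CPM in the controls and at 57.1, 51.3 and 64.5 CPM in the irradiated cultures, without overlap. Correcting each library for its dependence on transcript length, by an offset, brought UBE2E1 (0.70, adjusted p = 0.00717) and UBE2E3 (0.67, adjusted p = 0.0351) past the threshold by edgeR, while UBE2Z dropped out (0.115).

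The UBE2D family, which serves many RING ligases including MDM2, had no member past the test with TMM factors. UBE2D3, its most counted gene, was at 244, 259.9 and 205 CPM in the controls and at 223, 226 and 226 CPM in the irradiated cultures (-0.07 ± 0.12). UBE2D2 had a log2 fold change of 0.22 ± 0.13, and UBE2D1 and UBE2D4, with means under 10 CPM, had -0.17 ± 0.29 and -0.37 ± 0.44. With library totals alone the sign of UBE2D1, UBE2D3 and UBE2D4 turned positive, as did that of UBE2F, UBE2G2 and UBE2W. On that scale UBE2D2 (0.67, edgeR adjusted p = 0.00803) and UBE2D3 (0.39, 0.00667) passed as higher, beside a median of 0.53 over all genes.

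In the UBE2E family, UBE2E2 had -0.47 ± 0.28, opposite in sign to UBE2E1 and UBE2E3. Of the enzymes that build chains for the proteasome and for the degradation of endoplasmic reticulum proteins, UBE2G1 had 0.24 ± 0.25, UBE2G2 -0.08 ± 0.17, UBE2J2 0.36 ± 0.25 and UBE2K 0.14 ± 0.15. UBE2Q2 had 0.33 ± 0.24, and UBE2W, which ubiquitinates the amino terminus of its substrates, had -0.30 ± 0.19. UBE2W had an adjusted p of 0.269 by edgeR and passed among 8 lower genes when control 3 was left out. The genes that failed the filter were fitted with all 31768 listed genes and had 0.22 (UBE2R2), -0.25 (UBE2J1) and 1.59 (UBE2L5), with edgeR adjusted p of 0.567, 0.724 and 0.147.

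Levels were compared between genes per kilobase of transcript, with lengths averaged over each gene's annotated isoforms by their counts. Whether full-length reads call for this division was not tested, and the order depends on it. In CPM without it, UBE2V1 (1218 ± 124 in the controls) lay above UBE2T (1120 ± 168). UBE2L3 (449 ± 68) then lay above UBE2A (375 ± 36.9), and the control libraries overlapped within both pairs. Of the UBE2T counts in the controls, 47.3% had no annotated length. Per kilobase, UBE2T (984 ± 148 CPM per kb) came first in the controls and UBE2V1 (544 ± 55.1) next, and UBE2A (208 ± 20.5) and UBE2L3 (141 ± 21.4) were among the first 5. On this scale the control libraries of these 4 genes did not overlap with each other, and all 4 held the same ranks in the irradiated cultures. UBE2N went from rank 8 to 13, and UBE2H from rank 25 to 22. UBE2T and UBE2V1 together made up 48.5% to 50.5% of the E2 counts in the controls and 42.1% to 45.5% in the irradiated cultures.

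Over the 27 genes, Spearman's rho between the log2 fold change and the mean CPM was -0.57, beside -0.22 over 11118 genes. The genes share the same 6 libraries, so this is a description. The 7 genes that fell had mean levels of 97.8 to 1025 CPM and the 3 that rose 19.5 to 39.1 CPM. With length the rho was 0.14 over the E2 genes and 0.37 over the 10668 genes with a length.

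**Figure D3:**
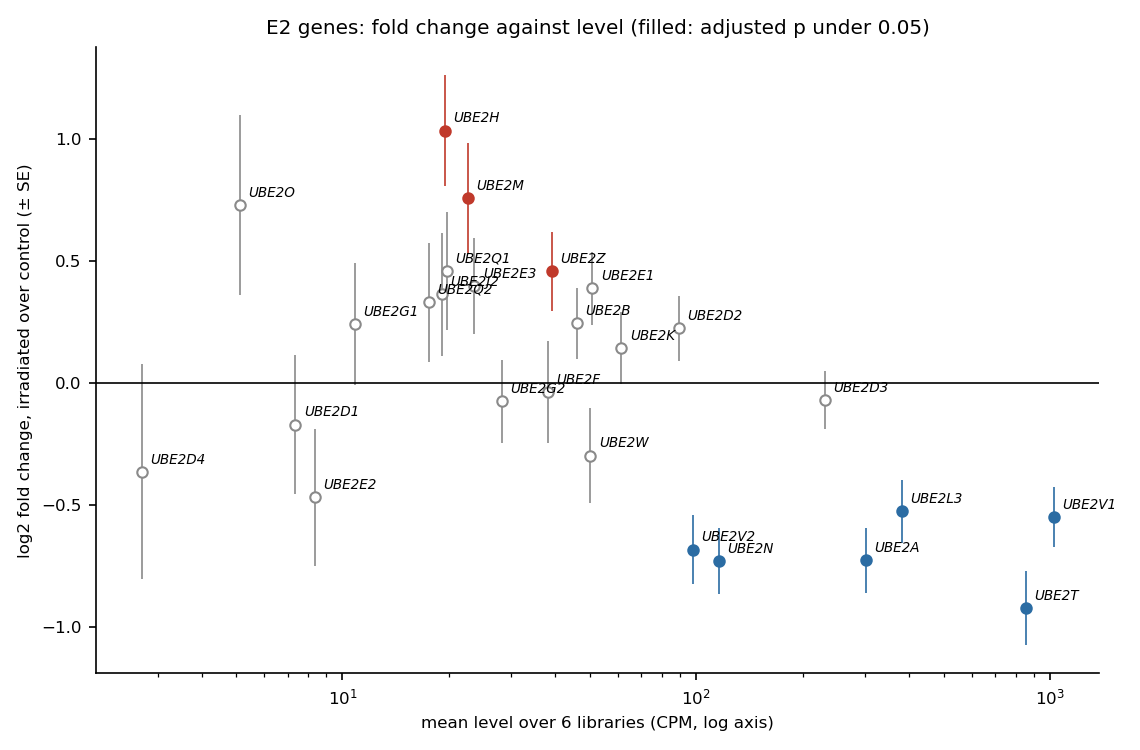
Log2 fold change (irradiated over control, with standard error) of 26 E2 genes against their mean level over 6 libraries on a log axis in CPM. Filled points passed an adjusted p of 0.05. The 6 drawn genes that fell lie between 97.8 and 1025 CPM and the 3 that rose between 19.5 and 39.1 CPM, while UBE2D3, at 231 CPM, lies near 0.

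At the transcript level, 60 of the 250 E2 transcripts fell and 12 rose at an adjusted p under 0.05, 24% and 4.8%, beside 10.7% and 8.54% of all transcripts and, for both directions, 28.8% beside 19.3%. With an absolute log2 fold change over 1, 22 were lower and 3 higher (8.8% and 1.2%), beside 4.33% and 3.36%, and both together made 10% beside 7.69%. With library totals alone the split turned to 28 lower and 58 higher. By DESeq2 43 were lower and 5 higher, without control 2 43 and 6, and without control 3 69 and 27. Of the 60 transcripts, 50 belonged to the 7 genes that fell. Transcripts of a gene are not independent here, since counts of several genes were spread almost evenly over isoforms. The 6 leading transcripts of UBE2T each held between 14.4% and 17.3% of its counts in both groups, the 5 leading ones of UBE2A between 17% and 19.1%, and the 2 of UBE2H 49.5% to 50.5% each. Transcript classes within UBE2T and UBE2A can therefore not be read from these shares, while both transcripts of UBE2H are coding. The same limit holds for UBE2Z, with 51.5% coding and 48.5% retained-intron counts in the controls.

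The 12 transcripts that rose came from 9 genes. They included both transcripts of UBE2H, ENST00000355621 (4.05, 8.12 and 7.32 CPM in the controls, 12.9, 13 and 13.3 CPM after irradiation) and ENST00000649897 (4.05, 7.64 and 7.32 against 12.9, 12.7 and 13 CPM). The main transcript of UBE2M, ENST00000253023, was at 12.1, 16.4 and 21 CPM in the controls and 31.2, 22 and 29.9 CPM in the irradiated cultures. In these genes the transcripts moved with the gene sum.

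In UBE2E1, 3 coding transcripts rose although the gene did not pass. ENST00000424381 was at 9.62, 7.17 and 8.94 CPM in the controls and 13.4, 11.1 and 14.8 CPM in the irradiated cultures (log2 fold change 0.62, edgeR adjusted p = 0.0143). ENST00000346855 was at 7.59, 7.01 and 8.81 CPM and then at 12.6, 10.6 and 14.7 CPM (0.68, edgeR adjusted p = 0.00714). ENST00000452012 was at 7.34, 6.21 and 7.82 CPM and then at 12.6, 10.2 and 14 CPM (0.78, edgeR adjusted p = 0.00199). By DESeq2 ENST00000452012 alone passed (adjusted p = 0.0324), beside 0.0948 for ENST00000424381 and 0.0626 for ENST00000346855. The 3 held similar shares of the gene's counts in the controls (19%, 17.4% and 15.8%), so they are not independent either. The leading coding transcript of UBE2E1, ENST00000306627, had -0.15 (edgeR adjusted p = 0.608), and the retained-intron transcript ENST00000495141, with 10 counts in all, was at 0.478 to 0.621 CPM in the controls and at 0 in each irradiated library.

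The other risers came from genes that did not rise as a whole. The retained-intron transcript of UBE2D3, ENST00000508474, was at 14.9, 13.1 and 11.5 CPM in the controls and 18, 19.6 and 17.7 CPM in the irradiated cultures. UBE2K ENST00000445950 was at 4.05, 3.82 and 4.84 CPM and then at 5.38, 6.78 and 8.14 CPM. The retained-intron transcripts ENST00000480828 of UBE2F (1.52, 0.159 and 0.869 against 2.63, 2.06 and 1.63 CPM) and ENST00000628734 of UBE2A (1.27, 1.11 and 1.61 against 3.81, 2.36 and 2.50 CPM) lay at a few CPM, and in each the irradiated cultures lay above the controls.

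A further 10 transcripts fell in 7 genes that did not fall as a whole. In UBE2F the coding transcript ENST00000272930 was at 16.7, 13.4 and 12.9 CPM in the controls and 9.72, 10.2 and 7.39 CPM in the irradiated cultures (log2 fold change -0.64, edgeR adjusted p = 0.00966). In UBE2D3, ENST00000503742, which retains an intron, was at 4.30, 5.41 and 4.97 CPM and then at 1.97, 1.62 and 1.88 CPM (-1.43, edgeR adjusted p = 7.5e-05), opposite in direction to the retained-intron transcript of the same gene that rose. The coding transcripts of UBE2D3 ENST00000321805 (6.58, 8.12 and 7.20 against 5.25, 2.80 and 4.51 CPM) and ENST00000508476 (1.27, 0.637 and 0.993 against 0.131, 0.442 and 0.125 CPM) also fell.

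UBE2W ENST00000419880 was at 9.87, 13.2 and 6.46 CPM in the controls and 4.99, 6.19 and 6.76 CPM in the irradiated cultures, so the groups overlapped, as did those of ENST00000651945 (9.36, 13.2 and 6.33 against 5.12, 6.05 and 6.76 CPM). UBE2E2 ENST00000396703 was at 6.58, 7.48 and 4.47 CPM and then at 4.20, 3.98 and 2.88 CPM. UBE2D2 ENST00000505007 (2.53, 0.955 and 0.497 against 0.394, 0.295 and 0.125 CPM) and UBE2G2 ENST00000491513 (1.01, 1.27 and 0.869 against 0.131, 0.295 and 0 CPM) rested on 26 and 22 counts in all.

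**Figure D4:**
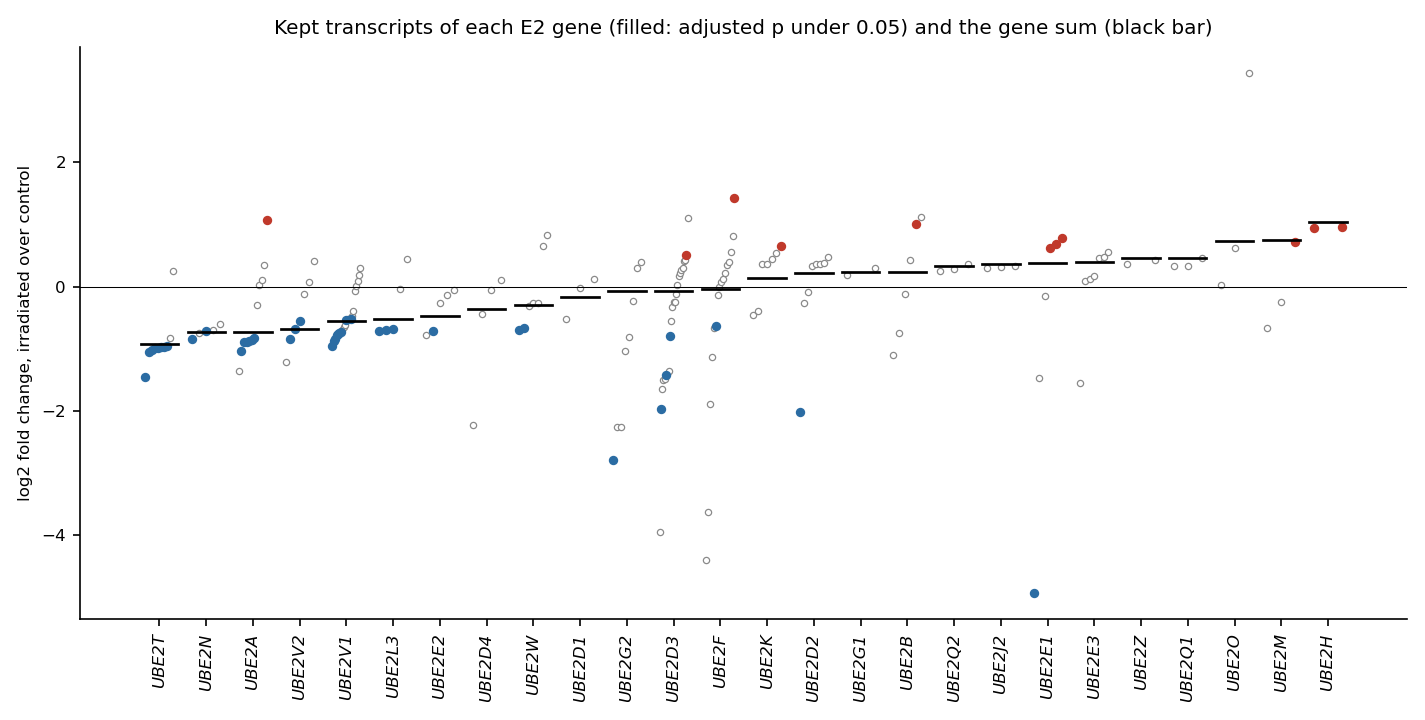
Log2 fold change (irradiated over control) of 181 kept E2 transcripts from 26 genes, by gene in the order of the gene's own change, which is the black bar. Filled points passed an adjusted p of 0.05, blue for the 41 drawn that fell and red for the 11 drawn that rose. In UBE2T and UBE2A most filled points sit close to the gene bar, and in UBE2D3 and UBE2F filled points lie on both sides of 0.

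Isoform usage was the isoform fraction (IF), the share of a gene's kept counts held by a transcript, and dIF was its mean in irradiated minus control cultures in percentage points. Usage was tested with edgeR's diffSpliceDGE. Of the 250 E2 transcripts, 24 passed an adjusted p under 0.05, 20 with more and 4 with less usage (8% and 1.6%, beside 3.53% and 0.911% of all transcripts), together 9.6% beside 4.44%. Of the 24, 23 moved by under 5 percentage points. They were spread unevenly over 9 genes, and 20 belonged to the 7 genes that fell, which hold 129 of the 250 transcripts. Without control 3, 38 passed, and 8 to 11 passed when control 1, control 2, irradiated culture 1 or irradiated culture 3 was left out. Only 1 transcript was switched, that is, also moved by at least 10 points, beside 0.404% of all transcripts.

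The switched isoform was UBE2B ENST00000499038. Its IF was 14.7%, 11.9% and 23.3% in controls 1 to 3 and 31.2%, 28.2% and 32.1% in the irradiated cultures. Every irradiated culture was above every control, and control 3 was nearest to them. The mean went from 16.6% ± 5.94 to 30.5% ± 2.05 (SD, n = 3), a dIF of 13.9 points with an adjusted p of 0.0219 by edgeR. Its abundance rose from 5.57, 5.57 and 10.2 CPM to 15, 14.6 and 15.3 CPM (log2 fold change 1.01 ± 0.20, edgeR adjusted p = 1.63e-05).

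The coding isoform of UBE2B, ENST00000265339, held 75.3%, 82.3% and 70.5% in controls 1 to 3 and 61.9%, 63.8% and 58.7% in the irradiated cultures, a dIF of -14.6 points. It did not pass by edgeR (adjusted p = 0.522) but did by limma's diffSplice (adjusted p = 0.0125). Its abundance was 28.6, 38.5 and 30.8 CPM in the controls and 29.7, 33 and 27.9 CPM in the irradiated cultures, which overlap, so that the gain of the processed transcript stands beside a coding transcript with a log2 fold change of -0.12 ± 0.17. Both isoforms hold exon 5 of the coding isoform and differ by its exons 1 to 4 and by the 34-base exon printed above. They also differ in the end of the last exon. It starts at chr5:134390225 in both, and holds 1768 bases in the coding isoform and 559 in the processed transcript. The call of the switched isoform was lost with library totals alone (adjusted p = 0.0694 by edgeR) and when any library but control 3 was left out, with adjusted p of 0.0563 to 0.213 by edgeR and a dIF of at least 11.5 points throughout. Without control 3, 5 E2 isoforms were switched.

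**Figure D5:**
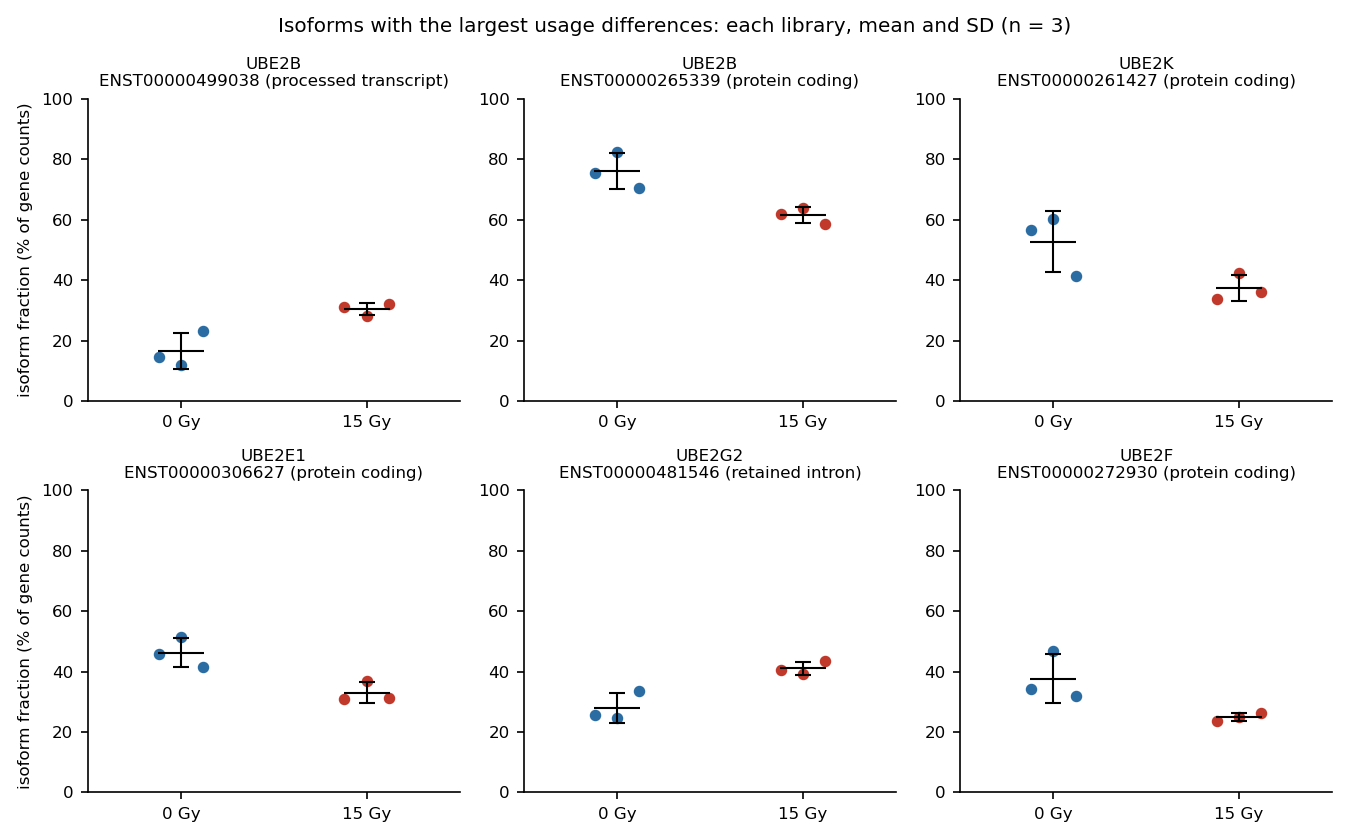
Isoform fraction, in percent of the gene's counts, of the switched isoform of UBE2B, of its coding isoform and of 4 other E2 isoforms with an absolute dIF over 10 points, one point per culture (blue 0 Gy, red 15 Gy) with mean and SD (n = 3). The groups do not overlap in 5 of the 6 isoforms and overlap in that of UBE2K. Of these, the processed transcript of UBE2B, which goes from 16.6% to 30.5%, alone passed the edgeR usage test.

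A further 6 isoforms moved by at least 10 points without passing the edgeR test, the coding isoform of UBE2B among them. UBE2K ENST00000261427 (coding) was at 56.5%, 60.3% and 41.5% in controls 1 to 3 and 33.8%, 42.4% and 36% in the irradiated cultures (dIF -15.4 points, adjusted p = 0.246). UBE2E1 ENST00000306627 (coding) was at 45.9%, 51.3% and 41.7% and then at 30.9%, 37% and 31.3% (dIF -13.2 points, adjusted p = 0.104). UBE2G2 ENST00000481546, a retained-intron transcript, was at 25.5%, 24.7% and 33.6% and then at 40.4%, 39.3% and 43.6% (dIF 13.2 points, adjusted p = 0.152).

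UBE2F ENST00000272930 (coding) was at 34.2%, 46.9% and 32% in controls 1 to 3 and 23.6%, 24.8% and 26.2% in the irradiated cultures (dIF -12.8 points, edgeR adjusted p = 0.254). UBE2D1 ENST00000373910 was at 55.6%, 51.4% and 46.5% and then at 40.4%, 41.9% and 40.4% (dIF -10.3 points, edgeR adjusted p = 0.876). These of UBE2K, UBE2E1, UBE2G2 and UBE2F passed limma's diffSplice, with adjusted p of 0.0174, 0.00381, 0.00203 and 0.0472, and together with both UBE2B isoforms made 6 switched isoforms by that tool. Exact permutation tests of the dIF of these isoforms could not go below 0.1.

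Gains with small fractions passed the test in genes that fell. The retained-intron transcript of UBE2A, ENST00000371569, went from 2.61%, 2.26% and 3.47% in the controls to 6.96%, 5.10% and 6.37% in the irradiated cultures (edgeR adjusted p = 5.2e-05). Its abundance, 10.5 ± 1.16 CPM in the controls and 13.5 ± 1.03 CPM after irradiation, did not pass (log2 fold change 0.35 ± 0.19, edgeR adjusted p = 0.209). UBE2L3 ENST00000545681 went from 3.26%, 3.39% and 4.79% to 8.77%, 6.64% and 7.85% (edgeR adjusted p = 0.000109), and UBE2V1 ENST00000415862 from 2.60%, 2.51% and 3.68% to 5.19%, 4.65% and 5.30% (edgeR adjusted p = 0.000388). In all of these, control 3 was the highest control.

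Summed over the E2 genes, coding transcripts held 57.6% ± 0.56 of the counts in the controls and 60.6% ± 1.18 in the irradiated cultures, and processed transcripts 1.96% ± 0.32 and 2.98% ± 0.31. Retained-intron transcripts held 13% ± 0.30 and 12% ± 0.30. Over all kept transcripts, retained-intron ones went from 8.66% ± 0.29 to 9.55% ± 0.18. Coding ones went there from 66.8% ± 0.66 to 64.4% ± 0.48, and processed ones from 3.72% ± 0.18 to 4.35% ± 0.14. These sums are weighted by UBE2T and UBE2V1, and transcripts that release 29 does not hold took 26% and 22.7% of the E2 counts. The share assigned to coding transcripts was 17% and then 16.9% within UBE2T, and 92.1% and then 90.7% within UBE2V1. Within UBE2L3 it went from 44.6% to 49%. The retained-intron share within UBE2T was 34.2% in both groups. The sums also depend on the part of the E2 counts that each gene takes, so they do not show a shift within genes. The classes are given without a test.

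Of the genes around the E2 enzymes, the modifiers that passed moved 1 way, with 7 of 11 tested lower (beside 14.1% of all genes) and none higher (beside 11.6%) by edgeR, and the same counts by DESeq2. RPS27A, which encodes ubiquitin fused to a ribosomal protein, had -1.18 ± 0.16, and SUMO2 had -0.97 ± 0.14 (edgeR adjusted p = 0.000429 and 0.00064). The median of the 11 was -0.65, beside 0.08 over all genes. With library totals alone 3 were lower and 4 higher, and RPS27A and SUMO2 were among those that stayed lower.

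Of 9 activating enzyme genes tested, 1 was lower and 2 higher, 3 of 9 called beside 25.7% of all genes. SAE1, a subunit of the SUMO-activating enzyme, had -0.47 ± 0.11, and UBA1, the main ubiquitin-activating enzyme, 0.40 ± 0.13 (edgeR adjusted p = 0.0063 and 0.0301). Of 8 tested E2 and E2-like genes with other names, 2 were higher, BIRC6 (0.83 ± 0.22) and CDC34 (0.81 ± 0.22), and 1 lower, TSG101 (-0.61 ± 0.19), 3 of 8 beside the same 25.7%. Of the E2 genes the naming rule leaves out, UBE2C, the partner of the anaphase-promoting complex, fell by 0.40 on the log2 scale (0.06 higher with library totals alone) and UBE2L6, the ISG15 enzyme, had 0.04. With library totals alone SAE1 was at -0.01 and no activating enzyme gene or E2 gene with another name was lower.

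Of 40 partner ligases tested, 3 were lower and 7 higher, 25% in all beside 25.7% of all genes, and with library totals alone 1 was lower and 23 higher. MDM2, the p53 ligase, rose by 1.64 ± 0.18 (edgeR adjusted p = 0.000121). RNF7, the partner of UBE2F, had -0.95 ± 0.13, and ARIH2, a partner of UBE2L3, had -0.74 ± 0.16 (edgeR adjusted p = 0.000478 and 0.003675). MAEA, of the ligase that UBE2H serves, was among the 7 that rose, with 0.57 ± 0.17 (edgeR adjusted p = 0.0191), and was named after its value was seen. Opposite to their E2 partners, ARIH1 (partner of UBE2L3) had 0.76 ± 0.24 and RBX1 (partner of UBE2M) had -0.34 ± 0.12 (edgeR adjusted p = 0.0298 and 0.0486). RNF31, FANCL, RAD18, RNF20, RNF40 and TRAF6 did not pass. These genes too were named after their values were seen.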

How the data were processed

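Per the labels, reads of 6 cDNA libraries were aligned with minimap2 and quantified with Salmon on GRCh38, and the authors deposited counts per transcript. Not given in the sources used here: tool versions, annotation release, strand handling and any collapse of molecular identifiers. GENCODE release 29 supplied classes, lengths and coordinates and covers 70.8% of the kept E2 transcripts and 75.5% of their counts.

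Kept counts were summed per gene and tested over all features with edgeR 4.0.16 (TMM factors, robust glmQLFit) in R 4.3.3, with DESeq2 1.42.0 and limma 3.58.1 as alternatives, after tests on simulated data. CPM are TMM-normalized, computed over kept transcripts for E2 genes and over all transcripts for markers and genes outside the filter. SE is the absolute log2 fold change over the square root of F. P-values set the difference between groups against the spread between cultures of 1 line, with 3 cultures per group. Libraries held 4870897 to 9082409 counts, and genes under 10 CPM rest on few reads. Promoter windows are from RefSeq and 23 member genes had one. Python 3.11.15, pandas 2.3.3, Biopython 1.88 and matplotlib 3.10.9 were used.

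Members, lists, roles and tests were chosen with earlier results of these data known. By rule, genes past an adjusted p of 0.05 and switched isoforms were given per library, with the 4 other genes of smallest adjusted p, the 6 isoforms of largest dIF (at least 10% IF and a gene mean of 10 CPM; UBE2D1, under 10 CPM, was added after its value was seen) and the 3 genes of smallest adjusted p in each list. The rule also covered transcripts past the threshold, of which the 50 lower ones of the 7 genes that fell are given by counts. A few genes that enter the counts are not reported here by name. Alternatives were RLE factors, library totals, other filters, a length offset, length-divided fractions, leaving out each library and blocking on the replicate number.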

Additional observations from a re-analysis of the deposited data

How the results depend on the processing

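The 7 genes that fell were the same 7 under RLE factors, DESeq2, both other filters, the length offset and the replicate block, and they were among the 7 to 8 called when 1 library was left out. With library totals alone 3 fell and 11 rose. The 3 that rose became 1 to 4 when 1 library was left out, 1 of them (UBE2H) without control 1, control 2, irradiated culture 1 or irradiated culture 3. The count with an absolute log2 fold change over 1 was 3 with library totals, 0 with RLE factors and 0 to 2 with 1 library left out. Transcripts that rose numbered 5 by DESeq2, 58 with library totals and 6 to 27 with 1 library left out, and those that fell 28 with library totals. Transcripts past the usage test numbered 8 to 38, the highest without control 3. Switched isoforms numbered 0 with library totals, 6 by limma and 0 to 5 with 1 library left out, 5 without control 3. The median log2 fold change was 0.0895 with the length offset, 0.402 with library totals and -0.0643 to 0.0874 with 1 library left out. No result turned its sign among those past the test. The cause of these shifts was not tested. Fits with a library left out hold fewer samples, and the median of all genes was higher under library totals.

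Deviations of cultures with the same number correlated at -0.0008, 0.091 and 0.016, and those of cultures with unlike numbers at -0.105 to 0.094. Whether cultures with the same number share more than that number cannot be told from these values. With the replicate number as a block, 7 E2 genes fell and 3 rose, and 2 isoforms in place of 1 were switched. The depth of control 1, 4870897 counts, limits what can be said of genes under 10 CPM. The other scalings of the pathway lists were added after seeing the data.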

Other observations

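Among loci named after the E2 genes that the naming rule leaves out, the pseudogene UBE2Q2P13 had 0, 11 and 0 counts in controls 1 to 3 and 40, 5 and 30 counts in the irradiated cultures, so that 1 control and 1 irradiated culture overlap (log2 fold change 2.47, edgeR adjusted p = 0.00107 in the fit over 31768 genes). UBE2D3-AS1, antisense to UBE2D3, had 6, 20 and 43 counts in controls 1 to 3 and 6, 13 and 10 in the irradiated cultures. The read-through locus UBE2F-SCLY had 53 counts in all. UBE2S, the chain-elongating enzyme of the anaphase-promoting complex, had 134, 187 and 319 counts in controls 1 to 3 and 354, 260 and 395 in the irradiated cultures, with a log2 fold change of 0.44 and an edgeR adjusted p of 0.109. Reads of pseudogenes and read-through loci can be exchanged with those of the parent gene.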
